A study of Mus musculus with 22 samples.

Results

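The promoter tiles described here were methylated in control forebrain. They were 100 bp windows on chromosomes 1 to 19 whose midpoint lay from 1 kb upstream to 100 bp downstream of a RefSeq transcription start site, that held at least 2 CpGs with 10 reads or more in at least 5 samples per condition, and whose mean methylation level over the controls was 60% or more. Of 114689 tiles analysed, 34062 (29.7%) lay at a promoter, and 1481 of these (4.35%) met the limit and belonged to 1149 genes. The libraries were rapid reduced representation bisulfite sequencing (rRRBS) of mouse forebrain at embryonic day 10.5, with 1 embryo per library. All embryos were wild-type C57BL/6. The 6 control embryos came from females injected with saline and the 16 EtOH-exposed embryos from females injected subcutaneously with ethanol before implantation. Per the study's methods, the embryos had no visible defect and some shared a litter, and the labels used here give neither litter nor sex, so embryos are counted singly and the spread between them may be partly that of litters.

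In mammalian genomes, most CpGs carry a methyl group on the cytosine, whereas the CpG islands at the start of housekeeping and developmental genes are usually free of it. Promoters that are poor in CpGs are often methylated wherever the gene is silent. A smaller class of dense promoters, among them those of many germline genes, gains methylation around implantation and is kept silent by it in the tissues of the body. These are background facts and not results of these libraries.

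The following reference sequences (GRCm38, plus strand) show the range of the methylated promoter tiles, with each base of a CpG in capitals. The first 4 are dense tiles at chr13:119488401-119488500, chr1:166238701-166238800, chr3:95559601-95559700 and chr13:23933801-23933900, and they hold 19, 12, 10 and 11 CpGs. The other 4 hold 3, 4, 2 and 3 CpGs and lie at chr2:38533501-38533600, chr10:61175101-61175200, chr11:46707101-46707200 and chr15:40162501-40162600. Among the tiles measured in all embryos, the first 3 of these are among the 8 largest decreases and the last has the highest control level.
Tmem267: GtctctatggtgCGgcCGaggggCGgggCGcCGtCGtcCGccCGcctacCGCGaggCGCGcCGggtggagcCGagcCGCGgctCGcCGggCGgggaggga
Mael: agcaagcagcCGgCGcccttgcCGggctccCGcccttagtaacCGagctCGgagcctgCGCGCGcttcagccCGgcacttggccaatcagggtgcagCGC
Hormad1: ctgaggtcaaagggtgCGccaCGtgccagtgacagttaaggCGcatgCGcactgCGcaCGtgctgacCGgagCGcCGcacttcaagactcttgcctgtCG
H2ac1: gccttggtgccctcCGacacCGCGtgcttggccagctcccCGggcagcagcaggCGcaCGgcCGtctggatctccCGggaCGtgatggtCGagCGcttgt
Gm35808: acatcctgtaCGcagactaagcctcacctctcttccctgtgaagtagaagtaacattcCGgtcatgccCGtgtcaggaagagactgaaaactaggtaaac
Tbata: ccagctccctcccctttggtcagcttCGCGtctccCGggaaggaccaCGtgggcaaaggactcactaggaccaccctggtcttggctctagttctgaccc
Timd2: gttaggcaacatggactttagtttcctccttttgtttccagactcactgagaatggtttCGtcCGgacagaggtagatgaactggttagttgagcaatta
Gm33301: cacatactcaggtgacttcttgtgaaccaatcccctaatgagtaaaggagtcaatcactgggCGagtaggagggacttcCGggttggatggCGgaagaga

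Most promoter tiles had little methylation. Of the 34062 promoter tiles, 31692 had a control level under 10%. The 10-point bins from 10 to 60% held 336, 175, 124, 128 and 126 tiles, and above the limit 138 lay at 60 to 70%, 185 at 70 to 80%, 472 at 80 to 90% and 686 at 90% or more. The level that chose the tiles had no gap at the limit. The Noxa1, Mir7656 and Gm30059 tiles lay just above it at 60.1, 60.1 and 60.3%, and the Chst15, Gm41392 and Mir671 tiles just below it at 59.999, 59.9 and 59.8%. In bulk tissue, a level between 0 and 100% cannot be resolved into methylated cells and partly methylated alleles.

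The methylated tiles were poor in CpGs. Their median was 4 CpGs per tile (1 to 19, counted in the reference sequence as CpGs that start in the tile) against 10 in the other promoter tiles, and their median GC content was 56% against 69%. The share of promoter tiles that were methylated was 34.7% at 2 CpGs, 26.4% at 3, 14.2% at 4, 8.92% at 5 and 0.211% at 10 or more. Only 97 tiles (6.55%) held 8 CpGs or more, compared with 67.5% of the other promoter tiles. Their midpoints were also farther from the start site. The median distance was −311.5 bp against −84.5 bp, and 41.1% of the methylated tiles lay within 200 bp upstream to 100 bp downstream compared with 65.0% of the others. Bases masked as repeats made up at least 50 of the 100 in 152 methylated tiles (10.3%) and in 1.13% of the others. By the midpoint of the tile, 331 methylated tiles lay in a coding exon, 297 in an exon outside coding sequence, 433 in an intron and 420 outside genes.

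**Figure D1:**
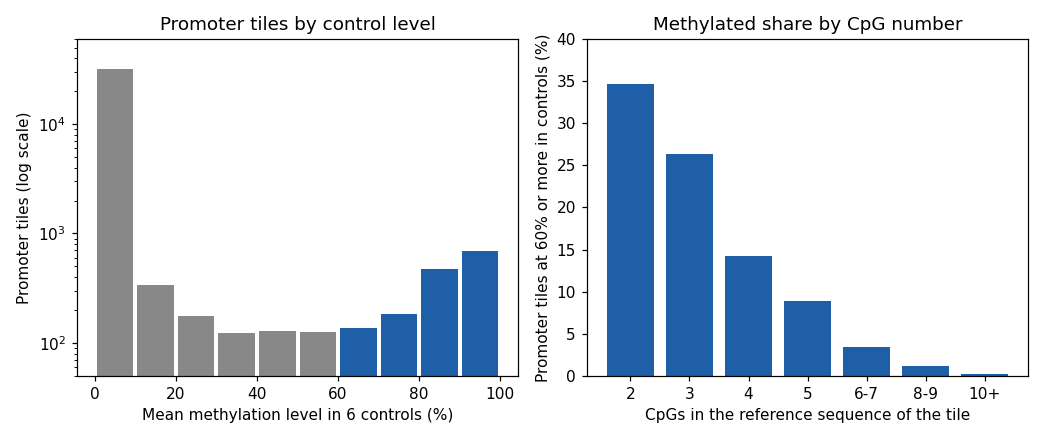
Left, number of promoter tiles (log scale) per 10-point bin of the mean methylation level over the 6 controls (%), with the chosen bins in blue; right, share of promoter tiles at 60% or more in controls (%) by the number of CpGs in the reference sequence. Most tiles lie under 10%, and the methylated share declines from 34.7% at 2 CpGs to 0.211% at 10 or more.

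The genes of these tiles were protein-coding in 643 cases, long noncoding RNAs in 391 and microRNAs in 66. Relative to the genes with any measured promoter tile, these were 6.20% of 10368 protein-coding genes, 19.01% of 2057 long noncoding RNA genes and 35.1% of 188 microRNA genes. MicroRNA genes often lie inside other genes, and a tile beside the start of the hairpin is then part of the host gene's body. Curated transcripts supplied the start site of 701 tiles (47.3%), whereas 81.4% of the other promoter tiles had one. Many genes with a methylated tile also had a promoter tile with little methylation, at the same or another start site. The distance between such tiles was not measured. Of the 643 protein-coding genes, 390 had further measured promoter tiles, and in 279 of these at least 1 tile was under 20% in controls. All measured promoter tiles were methylated in 94 of the 390, and the other 253 genes had 1 measured promoter tile. The 1481 tiles formed 1171 runs of adjacent windows, and the longest run, at Gm41757, covered 5 tiles.

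Lists of genes of this and other tissues were compared with the methylated tiles. Of 12888 genes with a measured promoter tile, 1149 had a methylated one. None of 23 measured neural progenitor and forebrain genes and none of 9 measured alcohol and aldehyde metabolism genes had a methylated promoter tile, with highest levels of 5.94% and 2.75%. With so few methylated genes in all, these 2 counts do not set the lists apart and are a weak check of the labelled tissue. Of the lists for other tissues, 3 of 9 measured muscle and heart genes (Ckm, Myh4 and Xirp1), 2 of 4 blood and immune genes (Ank1 and Lat), 2 of 5 keratin and cornified envelope genes (Krt35 and Krtap5-4), 7 of 11 olfactory, vomeronasal and taste receptor genes and none of 3 liver and gut genes had one. The Lat tile had its midpoint at −645.5 bp from the Lat start, in a coding exon of Spns1. At a Myh4 tile the nearest start was that of Myhas, a long noncoding RNA. Most members of the lists for other tissues had no promoter tile that passed the limits on reads, CpGs and samples, so these counts cover a small part of each list.

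Genes of the germline list were methylated at most of the promoters that were measured. Of 20 such genes with a measured tile, 14 had a methylated one, and their 29 tiles had a median control level of 91.3% and a median of 6 CpGs. Dense tiles included those of Slc25a31 (a germ-cell ADP/ATP carrier), Sycp1 (a protein of the synaptonemal complex), Tdrd1 and Mael (both of the piRNA pathway) and Hormad1 (of the meiotic chromosome axis). The Slc25a31 tile with 13 CpGs averaged 93.2% ± 1.303 (SD, n = 5) in controls and 92.7% in EtOH-exposed embryos. The Sycp1 tile with 12 CpGs averaged 95.2% ± 1.19 (SD, n = 5) and 94.4%. None of the 29 tiles was called in either direction by the logistic test at q under 0.01 and 10 points. That test called 2.63% of the 1481 tiles and 1.1% of all tiles lower, so the 0 does not set the 29 apart. The list is not a full set of germline genes. Tiles at Rbm44 and Rbmxl2, which are not on it, were called lower, with differences of −18.7 and −9.88 points. The EtOH-exposed mean was lower at 25 of the 29, and at 79.3% of the 1481. The differences at the 29 tiles ran from −7.59 percentage points, at a Mael tile, to 3.39, at a Tdrd1 tile, with a median of −0.82. The median over all 1481 tiles was −1.67, and the lists were described with no test of their own.

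The Hormad1 tile printed above ranged from 83.6 to 89.6% in the 6 controls, and from 73.1 to 90.2% in EtOH-exposed embryos, with a median of 87.9%. EtOH-exposed embryos 4 and 6 had the lowest levels at 77.9 and 73.1%, and 4 of 16 lay below every control. Mael had 3 adjacent methylated tiles. The one printed above ranged from 61.8 to 90.1% in controls and from 70 to 91.9% in EtOH-exposed embryos, so the control range enclosed all exposed embryos but number 3. The lowest control value came from control 6, with 89 reads summed over the CpGs of the tile. At the neighbouring Mael tile, chr1:166238601-166238700, the 5 measured controls lay between 79.3 and 93.2% and the EtOH-exposed embryos between 58.0 and 86.2%, with means of 86.5 and 78.9%. Of the 16 EtOH-exposed embryos, 4 lay below every control there, and embryo 5 was the lowest. The third Mael tile had means of 76.6 and 78.3%. At the Tuba3b tile (an alpha-tubulin gene of the testis) the controls lay between 94.2 and 97.6% and the EtOH-exposed embryos between 94.6 and 97.1%. Over the 9 germline tiles of 6 genes measured in all embryos, the controls averaged 90.6 to 92.7%, and 6 EtOH-exposed embryos lay below the lowest control, the lowest being number 6 at 87.8%.

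**Figure D2:**
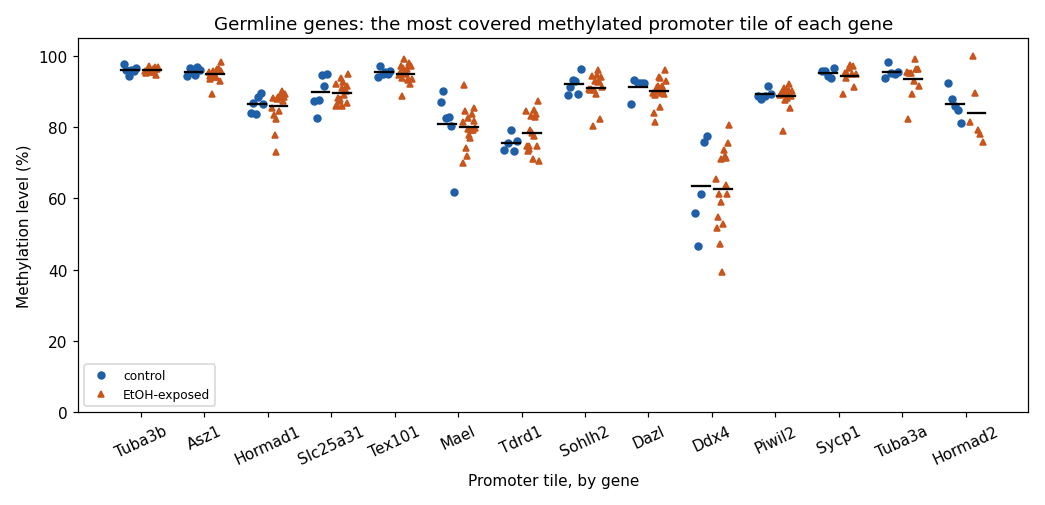
Methylation level (%) at 1 promoter tile for each of the 14 germline genes with a methylated tile, the tile measured in most embryos and then with most reads; blue circles are controls, orange triangles EtOH-exposed embryos and black lines group means. Group means lie close together at every gene, the widest spread is at Ddx4, and the control spread at Mael includes a value of 61.8%.

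Of the other lists, that of microRNA genes held the most methylated tiles. Among 13 measured pluripotency genes, Dppa2, Tcl1 and Zfp42 had 1 tile each with control means of 90.5, 92.3 and 89.5% and EtOH-exposed means of 89.9, 91.3 and 85.2%. Among 27 measured imprinted genes, Zdbf2 alone had a methylated tile, whose controls lay between 94.3 and 96.3% and whose EtOH-exposed embryos lay between 92.6 and 96.4%. Zdbf2 is a paternally expressed gene. Of 207 measured zinc finger protein genes, 7 had a methylated tile, and 1 of 6 clustered protocadherin genes, Pcdhb13, did. The 89 tiles of 65 microRNA genes had a median difference of −1.98 points, 71 of them had a lower EtOH-exposed mean, and none was called. Over all 1481 tiles the EtOH-exposed mean was lower at 79.3%, and 2.63% were called lower, so neither count sets the microRNA tiles apart.

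The tile with the most CpGs, 19, lay in the promoter windows of Tmem267, which encodes a transmembrane protein, and of the transcript 3110070M22Rik. Its midpoint was at −22.5 bp from a Tmem267 start site. Its controls ranged from 78.2 to 90.4% and its EtOH-exposed embryos from 75.9 to 92.6%. The adjacent tile with 14 CpGs, chr13:119488501-119488600, was called lower, with a control mean of 89.0% ± 2.28 (SD, n = 5) and an EtOH-exposed mean of 75.8% ± 16.7 (SD, n = 15). The 5 measured controls lay between 86.2 and 92.4%, and 9 of 15 EtOH-exposed embryos lay below all of them. Controls 3, 4 and 5 had 7, 6 and 7 CpGs counted there, and controls 1 and 2 had 11 each. The EtOH-exposed embryos had 10 to 14, so the levels cover partly different CpGs. EtOH-exposed embryos 2, 3, 8, 9 and 14 had 56.2, 51.2, 57.5, 53.2 and 61.6%, while numbers 4, 5 and 6 had 93.3, 96.3 and 95.2%. Embryos 4, 5, 6 and 14 had the lowest means over the methylated promoter tiles measured in all embryos, and of these number 14 alone was low at the Tmem267 tile. The tile on the other side of the densest one, with 18 CpGs, had means of 92.4 and 91.0%.

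Over the 327 methylated promoter tiles measured in all 22 embryos, the level varied more among EtOH-exposed embryos than among controls. The 6 controls had mean levels of 85.2, 86.3, 84.9, 85.7, 85.5 and 84.5%. EtOH-exposed embryos 4, 5, 6 and 14 had 77.6, 77.1, 77.6 and 79.1%, embryos 2, 8 and 9 had 81.2, 82.5 and 82.8%, and the other 9 had between 84.5 and 86.2%. Thus 7 of 16 EtOH-exposed embryos lay below every control and 9 lay within the control range. The group means were 85.3% ± 0.62 (SD, n = 6) and 82.8% ± 3.22 (SD, n = 16). Since the controls chose the tiles, each control was also measured against the mean of the other 5 over tiles that those 5 had chosen. These deviations ran from −1.23 to 0.90 points in controls, and those of EtOH-exposed embryos from −8.26 to 0.81. No p-value was computed for these means, because the tiles were selected on the control level.

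**Figure D3:**
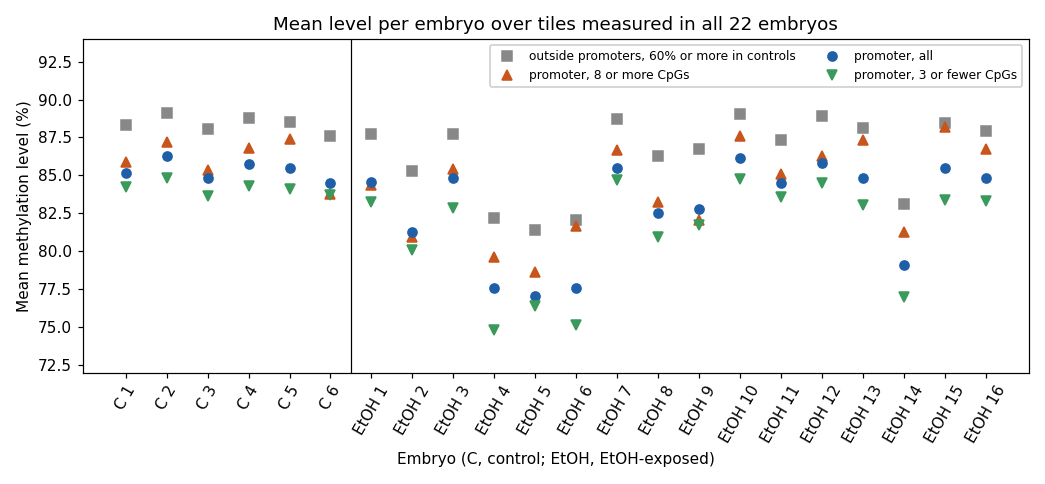
Mean methylation level (%) of each embryo over tiles measured in all 22 embryos, with 1 column per embryo: all 327 methylated promoter tiles (blue circles), the 31 with 8 or more CpGs (orange triangles), the 127 with 3 or fewer (green triangles) and 8221 tiles outside promoters at 60% or more in controls (grey squares). EtOH-exposed embryos 4, 5, 6 and 14 lie lowest in all 4 sets except for number 2, which lies below 6 and 14 in the dense promoter set.

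The same embryos were low outside promoters. Over 8221 tiles outside promoters at 60% or more in controls, the controls had 87.6 to 89.1%, EtOH-exposed embryos 4, 5, 6 and 14 had 81.4 to 83.1%, and the other 12 had 85.3 to 89.1%. Dense and sparse promoter tiles were also taken apart. Over the 31 tiles with 8 or more CpGs, controls lay between 83.7 and 87.4% and EtOH-exposed embryos between 78.6 and 88.2%, with 7 of the 16 below and 2 above every control. Over the 127 tiles with 3 or fewer CpGs, controls lay between 83.6 and 84.9% and EtOH-exposed embryos between 74.8 and 84.8%, and 13 of the 16 lay below every control. Of these, embryos 1, 11, 15 and 16 had 83.28, 83.59, 83.36 and 83.33%, close under the lowest control at 83.63%. The controls chose these tiles too, and the measure against the other 5 controls was not taken for dense or sparse tiles. The counts below every control are therefore a description only. EtOH-exposed embryos 4, 5, 6 and 14 had 55.2 to 59.9% of their measured methylated promoter tiles below the lowest control of the tile, and the other 12 had 8.03 to 41.1%. Over all tiles the shares were 20.8 to 44.8% in those 4 and 9.41 to 43.3% in the other 12.

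Libraries also differed in read distribution. The median number of reads, summed over CpGs, at a methylated promoter tile was set against that at a promoter tile under 10%. This ratio was 10.4 to 12.3% in embryos 4, 5, 6 and 14. It was 27.4 to 54.9% in controls and 22.8 to 52.1% in the other EtOH-exposed embryos. Among the latter, embryos 2, 8 and 9, also below every control in mean level, had 22.9, 22.8 and 27.1%. Embryo 3, within the control range in mean level, had 24.6%. Methylated and other promoter tiles differ in CpG number, so the ratio is compared between libraries only. Embryos 4, 5 and 6 had higher levels at promoter tiles under 10% as well, at 2.58 to 2.75%, whereas controls had 0.87 to 1.79% and embryo 14 had 0.45%. The part of these library differences in the lower levels was not tested. Without embryos 4, 5 and 6, the difference between the group means, over the methylated promoter tiles measured in every embryo kept, was −1.39 points in place of −2.57. Libraries were also grouped by their level at unmethylated tiles, joining neighbours in order of level that differed by a ratio of at most 1.3, a limit chosen after the data had been seen. This put all 6 controls in 1 group with 7 EtOH-exposed embryos, among which the difference was −0.60 points. The grouping depended on the limit. At a ratio of 1.2, controls 3 to 6 formed a group with no EtOH-exposed embryo, and controls 1 and 2 were joined by EtOH-exposed embryo 8 alone, so no comparison within a group was made.

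Per tile, the EtOH-exposed mean was below the control mean at 1174 of the 1481 tiles (79.3%), with a median difference of −1.67 percentage points. This median was −0.86 without EtOH-exposed embryos 4, 5 and 6, −0.85 without CpGs of CCGG sites and −0.074 among the controls and the 7 EtOH-exposed embryos grouped with them at a ratio of 1.3. With all embryos, the median was −1.35 over 46170 tiles outside promoters at 60% or more in controls and −0.10 over all tiles. The EtOH-exposed mean was lower at 75.8% of those outside promoters and at 57.0% of all tiles. The difference was within 2 points at 726 tiles (49.02%), at least 5 points lower at 279 and at least 5 points higher at 7. The EtOH-exposed SD exceeded the control SD at 1173 tiles (79.2%), with medians of 4.93 and 2.91 points. This share was 77.4% over all tiles and 79.4% over promoter tiles under the limit, so it does not set the methylated promoter tiles apart. The difference varied with the control level. Its median was −4.96 points at 60 to 70%, −2.79 at 70 to 80%, −2.21 at 80 to 90% and −1.14 at 90% and above. Tiles outside promoters in the same bins had medians of −4.58, −3.34, −1.62 and −1.14. It varied less with CpG number, from −2.06 at 2 CpGs to −0.78 at 10 or more. By place, the medians were −1.34 in coding exons, −1.69 in introns, −1.72 in exons outside coding sequence and −1.95 outside genes.

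**Figure D4:**
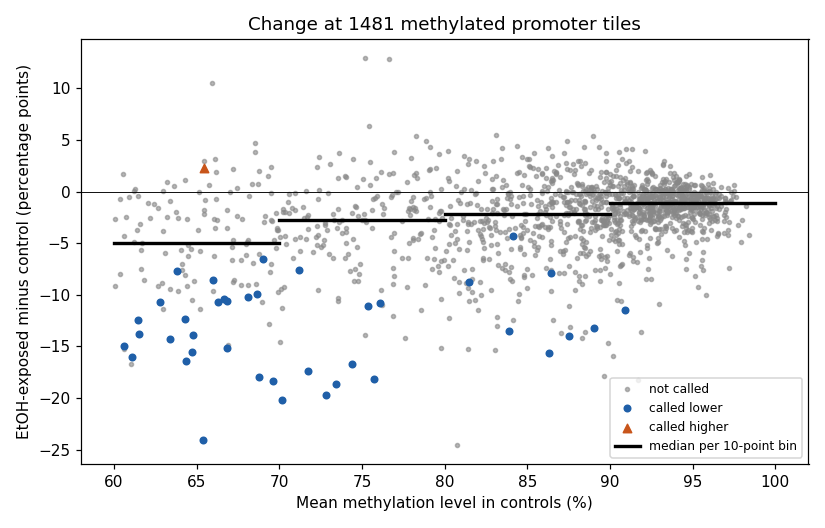
Difference between the EtOH-exposed and control mean levels (percentage points) against the control mean (%) for the 1481 methylated promoter tiles; blue points were called lower, the orange triangle was called higher, and black lines are medians per 10-point bin. Medians lie below 0 in each bin and are nearer to 0 at higher control levels.

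Calls followed the logistic test at q under 0.01 with a coverage-weighted difference of at least 10 points. Of the 1481 tiles, 39 (2.63%) were called lower, against 1.1% of all tiles, and 1 was called higher, against 0.0506%. Outside promoters, 1.28% of the tiles at 60% or more were called lower. Because the control level chose the tiles, these shares are a description only. Of the 39 tiles, 22 had a control level under 70%, a bin in which 15.9% of methylated promoter tiles and 13.1% of tiles outside promoters were called lower. When the mean of both conditions chose the tiles, 25 were called lower. With 1 EtOH-exposed embryo left out, the count ran from 26 to 59. With 1 control left out, which also cut the number of tiles analysed, it ran from 9 to 32. The calls also depended on the spread between embryos, which the logistic test does not include. The overdispersion F test and limma called 0 of the 1481 tiles and 0 of all 114689, so this 0 is not particular to the methylated promoter tiles. At an unadjusted p under 0.05, the F test had 94 tiles (6.35%) lower, against 3.95% of all tiles, and limma had 101 (6.82%), against 3.99%. At none of the tiles did all EtOH-exposed levels lie below all control levels, against 0.0209% of all tiles. Without EtOH-exposed embryos 4, 5 and 6, 10 tiles (0.681%) were called lower, against 0.333% of all tiles, and 9 of the 10 were among the 39. Of the 39, 37 were analysed in that setting and 35 were still lower, with a median coverage-weighted difference of −7.12 points. The embryos kept had also helped to choose the 39, so these overlaps are a description only. In the library group of the controls, 19 tiles (1.38%) were called lower, against 0.789% of all tiles, and 10 of the 19 were among the 39.

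The tiles called lower lay at genes of various functions. Nsd1, which encodes a histone H3 lysine 36 methyltransferase, had 2 adjacent called tiles, of which the one at chr13:55209201-55209300 was measured in 6 EtOH-exposed embryos, numbers 1, 4, 5, 6, 11 and 16, and would not be analysed without 4, 5 and 6. Others lay at Ghrh (growth hormone-releasing hormone), Ube2b (a ubiquitin-conjugating enzyme), Rpl38 (a ribosomal protein), Pfkm (the muscle form of phosphofructokinase), Lpin1 (a phosphatidate phosphatase), Slc2a9 (a urate transporter) and Arcn1 (a subunit of the COPI coat). The Ghrh, Rpl38 and Slc2a9 tiles lay at predicted start sites only, and 17 of the 39 called tiles lay at a curated one. The Arcn1 tile was also measured in 6 EtOH-exposed embryos, among them 4, 5 and 6. These genes were singled out after their values had been seen. The tile upstream of Ghrh had 63.2 to 69.8% in 5 controls and 15.5 to 70.5% in EtOH-exposed embryos, with a mean of 41.3% ± 17.7 (SD, n = 16), and 13 of 16 embryos lay below every control. Its lowest levels were 15.5% in embryo 5, 16.7% in embryo 6 and 23.1% in embryo 8, while embryo 12 was at 70.5%.

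The Nsd1 tile at chr13:55209301-55209400 had 73.6, 78.7, 76.9, 70.4 and 64.5% in the measured controls. EtOH-exposed embryos ranged from 34.0 to 73.0% there, 11 of 16 lay below every control, and embryos 5, 6, 14, 2 and 4 were the lowest at 34.0, 36.0, 37.8, 40 and 41.2%. The largest coverage-weighted difference, −21.9 points, was at Ube2b, where the measured controls had 69.7, 69.8, 74.6, 79.4 and 57.2%. EtOH-exposed embryos 4, 5 and 6 had 11.1, 18.1 and 17.4% at this tile, and the other 9 measured ones had 47.9 to 75.0%. The Rpl38 tile held 8 CpGs in the reference, of which 2 were counted in each measured embryo. It had 72.1 to 82.6% in 5 controls, and 15 of 16 EtOH-exposed embryos lay below that range. The single tile called higher, at Gm33641, had control levels of 56.5, 37.8, 79.4, 82.2 and 71.2%, so the groups overlapped widely.

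Among tiles measured in all 22 embryos, 1 per gene, the 8 largest decreases of the group mean were at Gm35808, Palm, Pald1, Timd2, Gm33887, Gm46055, Gm52055 and Tbata. The differences ran from −17.9 points at Gm35808 to −12.4 at Tbata. The Timd2 and Tbata tiles lay at curated start sites and the others at predicted ones only. Palm encodes paralemmin, a membrane phosphoprotein, and Timd2 a member of the TIM family of cell surface proteins. At Gm35808, a noncoding RNA inside Nek6, the 6 controls had 94.9, 100, 85.8, 86.8, 83.0 and 87.4%. EtOH-exposed embryos 4, 5 and 6 had 39.8, 40.8 and 45.8%, the median was 78.3%, and 11 of 16 lay below every control. The coverage-weighted difference at this tile was −9.79 points, and it was not called. Without these 3 embryos the difference of group means was −11.1 points.

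At Pald1, with a tile midpoint in an exon outside coding sequence, controls had 61.1, 52.7, 57.6, 61.7, 59.8 and 70.6%. EtOH-exposed embryos ranged from 12.6% in embryo 14 to 69.7% in embryo 16, with a median of 45.1%, and 10 of 16 lay below every control. At Tbata, a gene expressed in thymus, brain and testis, controls had 60.2, 63.9, 66.4, 63.7, 66.7 and 48.0%. The lowest control was number 6, with 25 reads summed over 2 CpGs. The EtOH-exposed embryos ranged from 19.8% in embryo 5 to 62.9% in embryo 3. At Timd2 the coverage-weighted difference was −4.33 points against −14.2 for group means. The EtOH-exposed embryos there ran from 15.4 to 89.0%, so the groups overlapped.

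**Figure D5:**
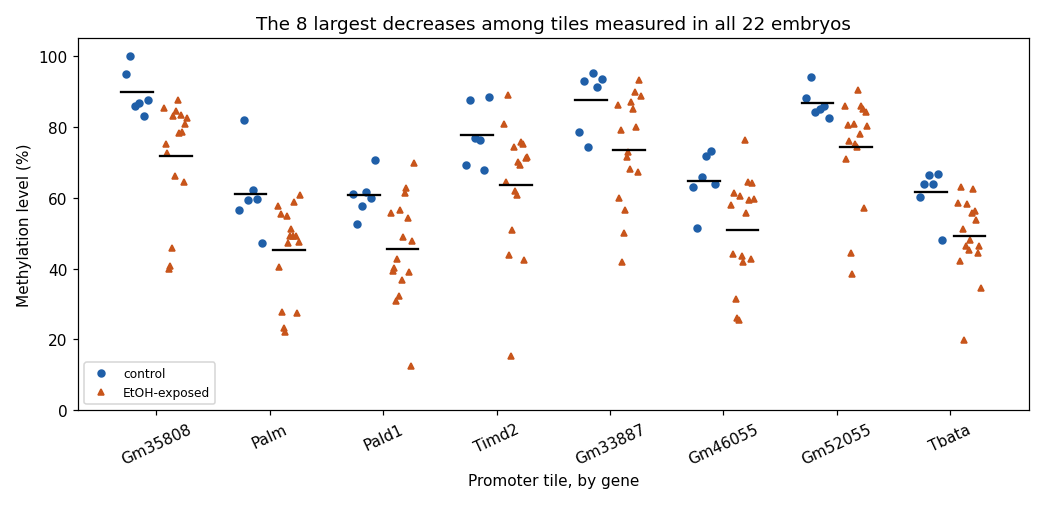
Methylation level (%) per embryo at the 8 methylated promoter tiles with the largest decrease of the group mean among those measured in all 22 embryos; blue circles are controls, orange triangles EtOH-exposed embryos and black lines group means. The lowest EtOH-exposed levels, such as 12.6% at Pald1 and 15.4% at Timd2, lie far below their group means, and the highest overlap the controls.

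Increases were smaller. The 5 largest among tiles measured in all 22 embryos were at Nlrc5 (a transactivator of MHC class I genes), Gm12786, Szrd1, Col27a1 (a fibrillar collagen) and Ccdc42 (a sperm protein), with differences of 2.94, 2.92, 2.50, 2.44 and 2.31 points, none called. Their coverage-weighted differences were 1.35, 3.07, −1.03, 1.99 and −0.38 points, so the direction turned at Szrd1 and Ccdc42. At Nlrc5 the controls ranged from 52.1 to 72.2% and the EtOH-exposed embryos from 58.9 to 76.2%, and control 6 was the lowest. Among all 1481 tiles the largest decrease was −24.5 points at Gm45723, measured in 6 controls and 13 EtOH-exposed embryos. Its coverage-weighted difference was −7.05 points, and it was not called. The largest increase among all 1481 tiles was 12.9 points at Xirp1, not called, which encodes an actin-binding protein of striated muscle. Its controls had 58.0, 61.5, 78.2, 83.7, 83.1 and 86.7%, and the 9 measured EtOH-exposed embryos had 78.6 to 100%, and controls 1, 2 and 3 lay below all of them.

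Among tiles measured in all 22 embryos, the 5 highest control levels were at Gm33301, Nop10, Gm23261, Gm20751 and Gm37416, with 97.9, 97.5, 97.1, 97.0 and 97.0%. Nop10 encodes a subunit of box H/ACA ribonucleoproteins, and its methylated tile lay outside genes. The Nop10 tile had EtOH-exposed levels between 96.3 and 98.7%, with a difference of 0.027 points. At Gm33301 the controls had 96.3 to 100% and 13 of 16 EtOH-exposed embryos lay below every control, with a mean of 93.1% ± 3.88 (SD, n = 16). This tile was not called, since its coverage-weighted difference was −3.11 points. Of the dense tiles, the one assigned to H2ac1, a histone H2A gene of the testis, had its midpoint at −586.5 bp from the start site, in a coding exon where the annotation holds H2bc1, a histone H2B gene, and Gm33516. It had 90.6 to 94.7% in controls and 91.0 to 95.9% in EtOH-exposed embryos. Across the 97 tiles with 8 or more CpGs in the reference, from 94 genes, the median difference was −1.17 points, 59 lay within 2 points, and 3 were called lower, against 1.1% of all tiles.

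A methylated promoter tile had a median of 229 reads per embryo. At the median control level of 89.5%, the 95% Wilson interval from counting was 84.9 to 92.9%. The per-embryo median reads used for the read ratio above were lowest in control 6 (89) and highest in EtOH-exposed embryo 7 (745). Most of them exceed 229, so they are compared between libraries only and not set against it. Per control, 871 to 1480 of the 1481 tiles were measured, and 1083 to 1452 per EtOH-exposed embryo.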

How the data were processed

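The libraries were digested with MspI, which cuts at CCGG, before bisulfite conversion. The submitters' processing notes name Trim Galore 0.3.3 for trimming, and BSMAP 2.90 with the mm10 build for alignment. The deposited files give, for each cytosine of a CpG and each strand, the count of reads covering it, with no normalization and a ceiling of 65535. The authors also deposited the methylated share of that coverage as a percent rounded to 1 decimal. Coverage is capped at that ceiling for at most 21 positions per sample. Methylated reads were taken here as coverage multiplied by percent, rounded. All positions on chromosomes 1 to 19 lay at a CpG of GRCm38.

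Each cytosine with at least 10 reads was placed in the 100 bp tile of its own position, and both strands of a CpG were added up. Reads of a tile were summed over its CpGs, and its level was methylated over total reads per sample. A group level was the unweighted mean over its samples, and weighted levels pooled reads. Promoters used all RefSeq transcripts of GRCm38 with curated and predicted starts. For every analysed tile the exposure term of a logistic model was tested by likelihood ratio on read counts, with Benjamini-Hochberg adjustment over 114689 tiles. Alternatives were an F test with overdispersion per tile and limma 3.58.1 in R 4.3.3 on log2 ratios with 0.5 added. All tests were tested on simulated data. The simulated embryos of a group differed by counting error only, so this cannot show how the calls hold at the real spread between embryos. Files held 68126469 to 132488556 calls per control and 89179413 to 216223892 per EtOH-exposed sample. Intervals cover counting error only, since PCR copies and CpGs on the same read were not told apart. Replicate numbers in the labels were not taken as pairs, as deviations of same-numbered samples correlated between −0.11 and 0.19. No 2 libraries of a group agreed within counting noise, with every count taken as independent, the lowest mean chi-square per tile being 2.10.

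The tiles, gene lists and alternatives were chosen with earlier results of these data known. The genes named were, among tiles measured in all 22 samples and 1 per gene, the 8 largest decreases, the 5 largest increases, the 5 with most CpGs and the 5 highest control levels, then up to 4 genes of each list and the 3 tiles on each side of the limit. Other genes were added after their values had been seen. Scripts ran under Python 3.11.15 (matplotlib 3.10.9, pandas 2.3.3, scipy 1.17.1, numpy 2.4.6).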

Additional observations from a re-analysis of the deposited data

Results flagged for a closer look

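Among 101 sets of control levels examined, 9 held a sample far from the others, and chance alone gives about 1 such set in 20. At 5 of these tiles control 6, which had the fewest reads per methylated promoter tile, was the lowest: Tbata at 48.0% (nearest control 60.2%), Nlrc5 at 52.1% (65.6%), Ccdc42 at 75.0% (86.0%), Mael at 61.8% (80.3%) and Nop10 at 94.5% (97.4%). The Gm34536 tile starting at position 26389201 of chromosome 5, one of the tiles called lower, also had its lowest control in number 6, at 78.7% (92.1%). Control 2 was high at Gm33326 with 95.6% (88.3%) and low at Tmtc1 with 57.5% (65.0%). Control 1 was high at Dppa2 with 95.8% (90.7%).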

How the results depend on the processing

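The direction of the median and mean differences held under every alternative run. In the library group of the controls, however, the median difference lay within the range of the controls' own median deviations, −0.32 to 0.59 points. The number of tiles, 1481, was 463 to 1481 when 1 sample was left out, the low end coming from controls, since 5 of the 5 left were then required. It was 863 with 20 reads, 750 with 3 CpGs, 2695 with 3 samples per condition, 327 with all 22, 701 with curated starts, 929 with 500 bp upstream and 880 without CpGs of CCGG sites. The 39 tiles called lower became 76 with 5 reads, 19 with 20 reads, 14 with 3 CpGs, 153 with 3 samples per condition, 8 with all 22, 8 at a control level of 80%, 25 when both conditions chose, 17 with curated starts, 17 without CCGG sites, 65 with unweighted means, 2 at 20 points, 0 with the F test or limma, 10 without EtOH-exposed samples 4, 5 and 6, 12, 15, 9, 10 and 20 without control 1, 3, 4, 5 or 6, and 59 without EtOH-exposed 12, the lowest and highest for 1 sample left out being 9 and 59. The single tile called higher became 0 to 3 in these settings, and 0 with 500 bp upstream, and 2 at a control level of 50%. The median difference of −1.67 was −0.85 without CCGG sites, −0.86 without samples 4, 5 and 6, −1.05 when coverage-weighted and −1.87 to −1.42 without 1 sample. The mean difference of −2.57 was −1.89 at a control level of 80%, −1.75 without CCGG sites, −1.39 without samples 4, 5 and 6 and −2.79 to −2.20 without 1 sample.

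Alternatives chosen after the data had been seen were leaving out samples 4, 5, 6 and 14 (7 lower, 2 higher, median −0.59, mean −0.97), keeping the library group of the controls (19 lower, 4 higher, median −0.074, mean −0.60), and measuring controls over tiles chosen by the others (−2.45). Without samples 4, 5, 6 and 14, 0.477% of methylated promoter tiles and 0.26% of all tiles were called lower. In the library group these shares were 1.38% and 0.789%. With a replicate block over samples 1 to 6 of each condition, 114 tiles were called lower and 0 higher, and without the block 115 and 0. That subset covered 96052 tiles and includes EtOH-exposed 4, 5 and 6, so its counts are not set against those of all embryos. Counts with no share over all tiles are a description only. Of 6 controls, 1 correlated best with its own number. Of 434 recomputed differences at named tiles, 425 moved by less than the control SD and 9 by more. A move under the control SD can still turn the sign, as at Szrd1 and Ccdc42 when coverage-weighted. The cause of these changes was not tested. Depth, with a median of 229 reads per tile and embryo summed over CpGs, limits the precision of single levels.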
